A study of Mus musculus with 40 samples.

Results

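The transcripts of collagens VI, VIII, XII, XIV and XVI were followed in mouse heart through the levels of 8 genes, Col6a1, Col6a2, Col6a3, Col8a1, Col8a2, Col12a1, Col14a1 and Col16a1. The genes were chosen by name, all 8 were found among the 11450 genes of the deposited expression table, and all 8 were among the 11390 genes tested. The hearts came from adult C57BL/6 mice in which the left anterior descending coronary artery had been tied off permanently. Each of 20 mice gave an injured library, from the fibrotic scar, and an uninjured library, from a region of the same heart remote from the infarct. There were 4 mice on each of days 3, 7, 14, 21 and 42, so the 40 libraries formed 10 groups of 4, and no heart without ligation was among them. The uninjured region is therefore tissue of an infarcted heart. Mice of days 3 to 21 carried A labels and mice of day 42 carried B labels, so a difference between day 42 and an earlier day and a difference between sets of animals cannot be told apart.

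Most of the collagen in a scar is fibrillar, and the collagens described here are the ones that coat fibrils, link them to cells or form networks and microfilaments of their own. The alpha-1, alpha-2 and alpha-3 chains of collagen VI assemble into beaded microfilaments that surround cells close to the basement membrane. The alpha-1 and alpha-2 chains of collagen VIII form short trimers that build networks in vessel walls and in the cornea. Collagens XII and XIV sit on the surface of collagen I fibrils and affect how fibrils pack and grow, most clearly in tendon, and collagen XVI is related to them and is bound by integrins.

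The genes lie on 6 chromosomes of the mouse genome build mm10 (GENCODE M21 gene spans). Col6a1, at chr10:76708792-76726168, and Col6a2, at chr10:76595762-76623630, are neighbours on the minus strand with 85.2 kb between them. Col6a3 is at chr1:90765923-90843971 on the minus strand. Col8a1 is at chr16:57624258-57754737 on the minus strand, and Col8a2 is at chr4:126286793-126314330 on the plus strand. Col12a1 is at chr9:79598991-79718831 on the minus strand, Col14a1 at chr15:55307750-55520803 on the plus strand, and Col16a1 at chr4:130047840-130099283 on the plus strand.

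Promoters of 300 bases, from 250 before to 50 after the start of transcription, were taken from RefSeq (GRCm38.p6, the mm10 assembly) for 6 of the 8 genes. The 4 printed here belong to 2 pairs. The neighbouring collagen VI genes had levels that ran together, and the collagen VIII genes had a ratio that changed between days in the injured region. Each is written 5′ to 3′ on the strand of its gene, in lower case, with motif matches in capitals. The capitals mark the AP-1 motif (TGANTCA) in the Col6a1 promoter and GC boxes (GGGCGG on either strand) in the others.
Col6a1, chr10:76725995-76726294, minus strand: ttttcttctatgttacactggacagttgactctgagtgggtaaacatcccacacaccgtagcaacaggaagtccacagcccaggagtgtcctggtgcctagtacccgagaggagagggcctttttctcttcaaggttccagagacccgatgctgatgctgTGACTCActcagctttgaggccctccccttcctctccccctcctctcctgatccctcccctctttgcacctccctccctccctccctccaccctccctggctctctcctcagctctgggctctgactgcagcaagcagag
Col6a2, chr10:76623581-76623880, minus strand: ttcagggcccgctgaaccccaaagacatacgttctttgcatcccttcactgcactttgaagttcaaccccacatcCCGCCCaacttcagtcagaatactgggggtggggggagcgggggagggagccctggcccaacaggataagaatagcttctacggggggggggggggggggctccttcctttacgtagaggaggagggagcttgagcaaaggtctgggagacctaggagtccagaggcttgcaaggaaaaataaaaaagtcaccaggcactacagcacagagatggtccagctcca
Col8a1, chr16:57754688-57754987, minus strand: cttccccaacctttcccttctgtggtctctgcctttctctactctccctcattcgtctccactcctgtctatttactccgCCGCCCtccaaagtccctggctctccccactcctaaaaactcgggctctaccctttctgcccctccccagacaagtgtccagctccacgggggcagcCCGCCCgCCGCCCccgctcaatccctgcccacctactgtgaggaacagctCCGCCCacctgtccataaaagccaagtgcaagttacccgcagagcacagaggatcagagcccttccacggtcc
Col8a2, chr4:126286544-126286843, plus strand: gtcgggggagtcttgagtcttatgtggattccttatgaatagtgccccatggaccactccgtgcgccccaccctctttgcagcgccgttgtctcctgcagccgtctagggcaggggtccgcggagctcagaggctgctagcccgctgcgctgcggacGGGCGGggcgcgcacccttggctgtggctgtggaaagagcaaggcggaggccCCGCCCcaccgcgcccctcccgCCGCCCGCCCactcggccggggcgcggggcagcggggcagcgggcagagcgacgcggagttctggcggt

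The 5 motifs AP-1, TEAD, TATA box, CCAAT box and GC box were searched on both strands of the 7 promoters of these 6 genes (Col6a2 has 2 starts) and of 32851 mouse promoters of the same length. The GC box was in 5 of the 7, and in 35.7% of all promoters, with 4 matches each in the Col8a1 and Col8a2 promoters (the last pair in Col8a2 overlapping) and 1 in the Col6a2 promoter printed above. The AP-1 motif was in 1 of the 7, that of Col6a1, where it began at base 161 from the 5′ end, and in 7.81% of all promoters. The TEAD motif (CATTCC) was in 1 of the 7, at the other Col6a2 start, and in 14.7% of all promoters. The CCAAT box (CCAAT) was in 1 of the 7, that of Col16a1, against 37.4% of all, and the TATA box (TATAAA) was in none of the 7, against 13.6% of all. The letters G and C made up 57.3% of the Col6a1 promoter, 56.7% of the Col6a2 promoter, 60.3% of the Col8a1 promoter and 71.7% of the Col8a2 promoter, with a median of 52.7% over all promoters. These matches describe sequence only.

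Expression is given as RPKM, the reads of a gene scaled to its length and to a size of its library. Levels of different genes can thus be compared per length. The library size used was not the plain read total. Reads recovered from the RPKM values, over that size, had a median of 0.971 in injured and 1.64 in uninjured libraries. Both are relative to the day 3 injured library of mouse A4, at 1. The 40 libraries held 17030371 to 59027272 reads in the genes of the table, as recovered from the RPKM values. Injured libraries reached 25091283 at most. In several uninjured libraries with higher totals, such as that of mouse A4 of day 3, the recovered counts of all 8 genes were even. Counts and totals of such libraries may therefore be too high by a constant factor. Of the 8 genes, Col8a2 rested on the fewest reads, from 20 to 11630 reads with a median of 239, and Col8a1 reached the most, from 1526 to 54668. Differences between regions are log2 differences of RPKM + 1 with their standard error (SE), from limma with the mouse as a block, and a gene was called when its Benjamini-Hochberg adjusted p over all 11390 genes was under 0.05.

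All 8 genes were higher in the scar than in remote tissue on each of the 5 days, and on each day all 4 mice showed that direction. Over all genes tested, 44.1% were called higher in the injured region on day 3, 43.6% on day 7, 42.4% on day 14, 43.1% on day 21 and 40.5% on day 42. The lowest injured library lay above the highest uninjured library for all 8 genes on every day, where 41.3%, 38.1%, 38.8%, 39.9% and 35.7% of all genes did so on days 3, 7, 14, 21 and 42. The median log2 difference of the 8 genes was 1.29 on day 3, 3.18 on day 7, 2.94 on day 14, 2.51 on day 21 and 2.58 on day 42. The median over all genes tested lay between 0.03 and 0.06 on every day. In bulk tissue, more cells of a type and more RNA per cell cannot be told apart.

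**Figure D1:**
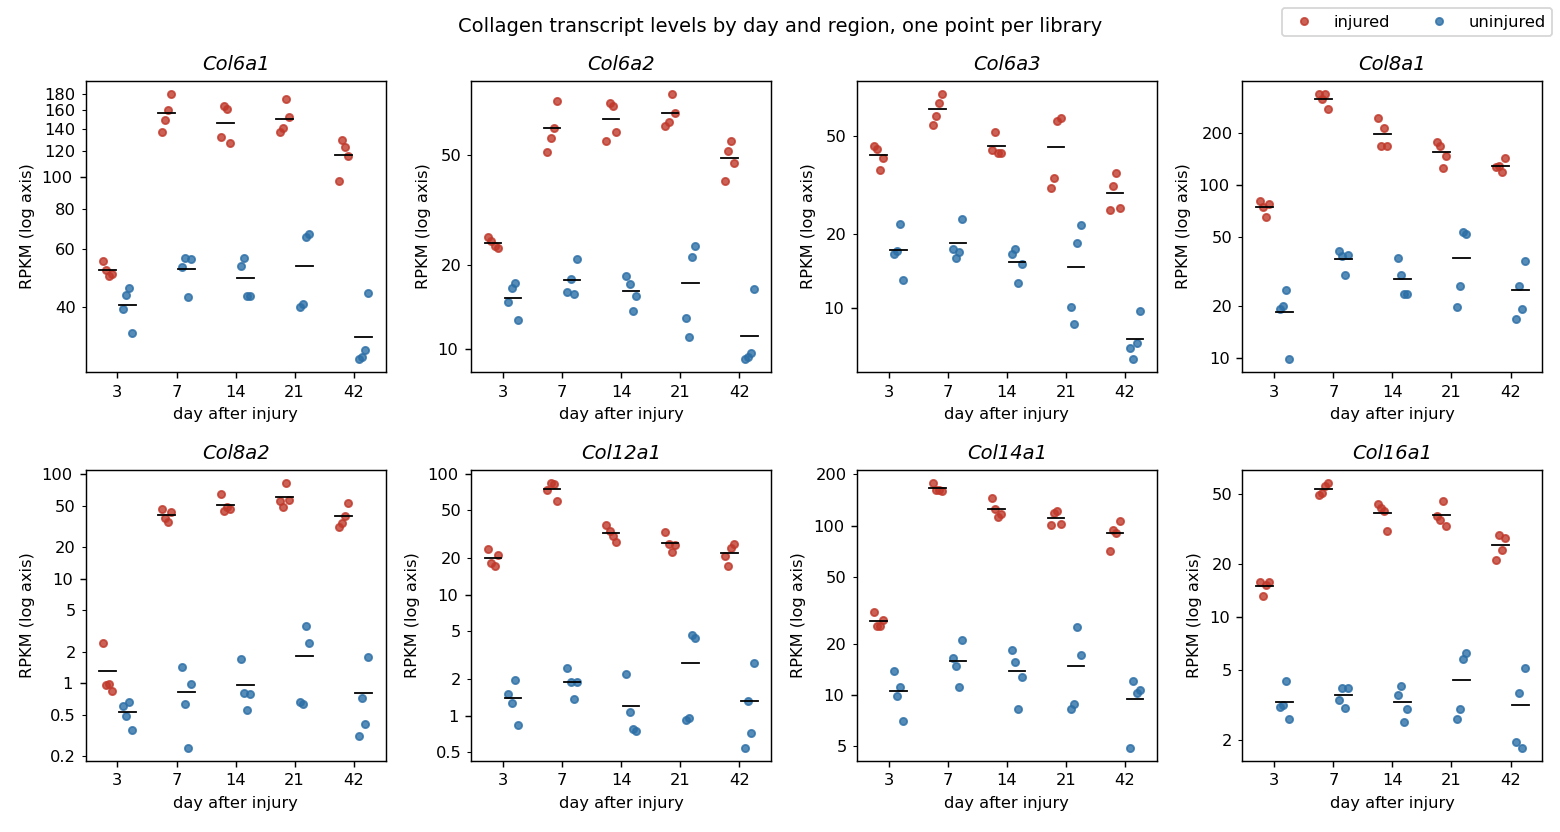
RPKM (log axis, its range differing between panels) of each collagen gene in every library against the day after injury, with days evenly spaced, injured libraries on the left and uninjured libraries on the right of each day, and black lines at the group means. Injured points lie above uninjured points on all days in all 8 panels, with the narrowest gap at day 3 in the Col6a1 panel and the widest gaps from day 7 on in the Col8a2 panel.

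From day 7 on, the collagen VI chains had the smallest region differences of the set, and on day 3 Col6a1 had the smallest. On day 3, Col6a1 had 55.2, 52.1, 49.7 and 50.5 RPKM in injured libraries, against 39.3, 43.7, 45.7 and 33.2 RPKM in uninjured libraries. On day 7, Col6a1 had 137, 150, 160 and 179 RPKM in injured libraries, against 53.1, 56.4, 42.9 and 56.2 RPKM in uninjured libraries. The groups stood close together on day 3 and far apart from day 7 on. The Col6a1 difference was 0.36 ± 0.13 (SE, n = 4 mice, limma adjusted p = 0.0134) on day 3, then 1.57 on day 7, 1.56 on day 14, 1.52 on day 21 and 1.83 on day 42. The day 3 call for Col6a1 ended without mouse A4 (0.32, adjusted p = 0.0576) or mouse A8 (0.28, adjusted p = 0.0843). The value was 1.13 when libraries were scaled to their recovered reads, a scaling that moved the median of all genes on day 3 to 0.68. On day 21 the Col6a1 difference was 2.40 after quantile normalization.

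Col6a2, which encodes the alpha-2 chain, averaged 24.1 ± 0.973 RPKM in injured and 15.3 ± 1.99 RPKM in uninjured libraries on day 3 (SD, n = 4 each). On day 21 it averaged 70.4 ± 8.52 RPKM in injured and 17.3 ± 6.17 RPKM in uninjured libraries (SD, n = 4 each). Its region difference was 0.63 ± 0.15 on day 3 (limma adjusted p = 0.00044), 1.75 on day 7, 1.98 on day 14, 2.02 on day 21 and 2.06 on day 42. Under the recovered-read scaling the day 3 difference was 1.38.

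Col6a3 encodes the long alpha-3 chain, whose released end fragment is known as endotrophin. On day 3 it had 45.6, 44.2, 36.3 and 40.6 RPKM in injured libraries, against 16.6, 17.0, 22.0 and 13.0 RPKM in uninjured libraries. On day 42 it had 24.9, 31.3, 35.5 and 25.4 RPKM in injured libraries, against 6.84, 6.20, 7.16 and 9.72 RPKM in uninjured libraries. Both regions had their lowest mean of Col6a3 on day 42. The region difference was 1.25 ± 0.13 on day 3, 1.77 on day 7, 1.51 on day 14, 1.60 on day 21 and 1.84 on day 42. Under the recovered-read scaling the Col6a3 difference on day 3 was 2.01.

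Levels of Col6a1 in the injured region ordered as days 7, 21, 14 and 42, with overlapping libraries between each of these neighbours, and all of them lay above every uninjured group. Injured libraries of day 3 overlapped uninjured libraries of days 7, 14 and 21 for Col6a1 and of day 21 alone for Col6a2, and lay above all uninjured libraries for Col6a3. Col6a2 ordered as days 21, 14, 7, 42 and 3 in the injured region, and day 3 was apart from day 42. Col6a3 ordered as days 7, 14, 21, 3 and 42, where days 14, 21 and 3 overlapped, and day 21 was spread widely enough to overlap days 7 and 42 too.

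Collagen VIII held both the highest level of the set, in Col8a1, and the largest change of an injured level between days, in Col8a2. Col8a1 had 333, 312, 333 and 274 RPKM in injured libraries on day 7, against 41.6, 38.6, 30.2 and 39.2 RPKM in uninjured libraries. By day 42 Col8a1 had 126, 128, 119 and 143 RPKM in injured libraries, against 16.8, 26.1, 19.1 and 36.4 RPKM in uninjured libraries. Its injured levels peaked sharply on day 7, which no library of another day reached, and stayed above those of day 3 afterwards. The region difference of Col8a1 was 2.02 ± 0.25 on day 3, 3.04 on day 7, 2.75 on day 14, 2.11 on day 21 and 2.40 on day 42.

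Col8a2, the partner chain, was near the floor of the table on day 3. It had 2.46, 0.956, 0.976 and 0.841 RPKM in injured libraries, against 0.610, 0.485, 0.664 and 0.361 RPKM in uninjured libraries. On day 7 it had 46.2, 38.6, 35.3 and 44.0 RPKM in injured libraries, against 1.43, 0.632, 0.243 and 0.989 RPKM in uninjured libraries. In injured tissue, 3 of the day 3 values stayed under 1 RPKM, whereas no injured library from day 7 on was under 31.0 RPKM. The region difference was 0.55 ± 0.15 on day 3 (limma adjusted p = 0.0023), 4.56 ± 0.15 on day 7, 4.75 on day 14, 4.58 on day 21 and 4.53 on day 42. The day 3 call for Col8a2 ended without the replicate block (adjusted p = 0.0613) and after quantile normalization (0.20, adjusted p = 0.132). It held with a pseudocount of 0.1 (1.06), under the recovered-read scaling (0.89) and without mouse A4, whose injured library was the highest (0.36, adjusted p = 0.0407).

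The mean of Col8a2 in the injured region was highest on day 21, at 61.0 ± 15.0 RPKM against 1.81 ± 1.42 RPKM in the uninjured region (SD, n = 4 each). Days 21, 14, 7 and 42 ordered so in the injured region, with overlapping libraries between each of these neighbours, and were all apart from day 3. Injured libraries of day 3 overlapped uninjured libraries of days 7, 14, 21 and 42, whose highest values were 1.43, 1.72, 3.54 and 1.78 RPKM.

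Among the fibril-associated collagens, Col12a1 was the one with the least transcript in uninjured tissue. On day 7 it had 74.5, 84.4, 82.3 and 59.4 RPKM in injured libraries, against 2.46, 1.90, 1.38 and 1.88 RPKM in uninjured libraries. On day 42 it had 20.8, 17.3, 24.5 and 26.4 RPKM in injured libraries, against 0.544, 1.33, 0.712 and 2.73 RPKM in uninjured libraries. The injured libraries of day 7 stood apart from those of all other days, which overlapped among themselves from neighbour to neighbour. Its region difference was the largest of the 8 on day 3, at 3.16 ± 0.27. On day 7 it was 4.71 ± 0.27, close to the 4.56 ± 0.15 of Col8a2. The injured mean of day 7 was 39.4 times the uninjured mean for Col12a1 and 49.8 times for Col8a2. The Col12a1 difference was 3.96 on day 14, 3.08 on day 21 and 3.39 on day 42.

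Col14a1, the second fibril-associated chain, was the more abundant of the pair. On day 3 it had 31.1, 25.6, 25.5 and 27.8 RPKM in injured libraries, against 13.9, 9.91, 11.2 and 7.07 RPKM in uninjured libraries. On day 7 it had 178, 162, 163 and 160 RPKM in injured libraries, against 16.6, 14.8, 11.2 and 21.3 RPKM in uninjured libraries. Its injured groups ordered as days 7, 14, 21, 42 and 3, and days 7 and 3 were apart from their neighbours. The region difference was 1.34 ± 0.19 on day 3 (limma adjusted p = 2.2e-06), 3.33 on day 7, 3.14 on day 14, 2.95 on day 21 and 3.17 on day 42. Under the recovered-read scaling the day 3 difference was 2.07.

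Col16a1 averaged 14.9 ± 1.24 RPKM in injured and 3.29 ± 0.716 RPKM in uninjured libraries on day 3 (SD, n = 4 each). On day 7 it averaged 53.3 ± 4.12 RPKM in injured and 3.56 ± 0.457 RPKM in uninjured libraries (SD, n = 4 each). Injured libraries fell into 4 separate levels, with day 7 the highest, days 14 and 21 overlapping, then day 42 and day 3. Its region difference was 1.91 ± 0.15 on day 3, 3.57 on day 7, 3.23 on day 14, 2.90 on day 21 and 2.75 on day 42.

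The size of the region difference changed over the 5 days for 7 of the 8 genes by limma's F test of region by day, which called 74.3% of all genes. The adjusted p was 9.03e-12 for Col8a2, 4.27e-06 for Col6a1, 1.3e-05 for Col6a2, 1.32e-05 for Col14a1, 2.02e-05 for Col16a1, 0.00525 for Col12a1 and 0.0448 for Col6a3. For Col8a1 it was 0.0588, which does not show that its difference was constant.

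**Figure D2:**
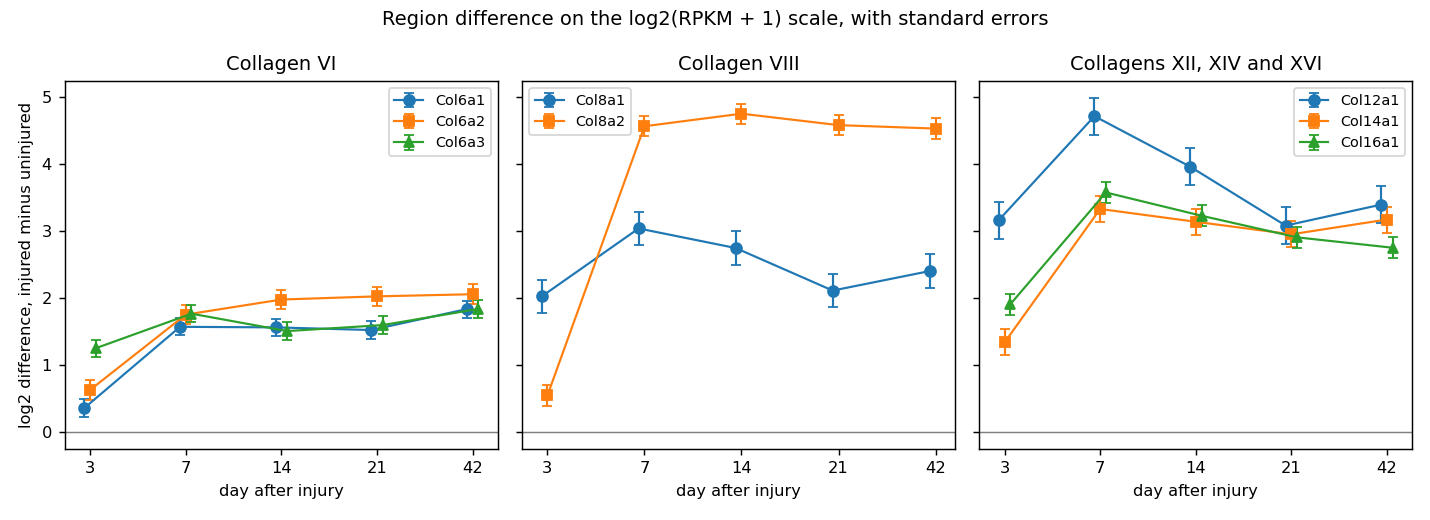
Log2 difference of RPKM + 1, injured minus uninjured, against the day after injury (evenly spaced), with bars of 1 standard error of the limma fit and 4 mice per point. All 40 points lie above 0, from 0.36 for Col6a1 on day 3 to 4.75 for Col8a2 on day 14.

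Within the injured region, all 8 genes rose between day 3 and day 7, where 27.7% of all genes rose and 32.7% fell. Over the 5 days, limma's F test called all 8 in the injured region, where it called 87.6% of all genes. Col8a2 rose most, by 4.23 ± 0.20 on the log2 scale, followed by Col14a1 at 2.55 ± 0.11 and Col8a1 at 2.06 ± 0.13. Col6a3 rose least, by 0.61 ± 0.18 (limma adjusted p = 0.0057). The remaining 4 genes rose by 1.32 to 1.84. The summed RPKM of 7 markers of activated fibroblasts, which include periostin (Postn), moved in the same direction in injured libraries, at 1762 to 2493 on day 7, against 585 to 843 on day 3. Of these 7 markers, 6 were called higher and 1 lower. Resting fibroblast markers rose in 6 of 7 (median 1.73) and late scar fibroblast markers in 5 of 6 (median 3.59). Markers of other cells moved too. Smooth muscle and pericyte markers rose in 4 of 6 (median 0.65), cartilage markers in 3 of 3 (median 2.61) and macrophage markers in 4 of 6, with 1 lower (median 0.59). Endothelial markers fell in 5 of 6 (median -0.92) and cardiomyocyte markers in 3 of 8 (median -0.36). The part of these markers in the collagen changes was not tested.

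Between day 7 and day 14, 5 genes fell in the injured region, where 21.2% of all genes fell, and none rose, where 21.9% rose. Col12a1 fell by 1.19 ± 0.15 on the log2 scale, to 32.4 ± 4.70 RPKM on day 14 against 75.2 ± 11.3 RPKM on day 7 (SD, n = 4 each). Col8a1 fell by 0.68 ± 0.13, Col16a1 by 0.45 ± 0.12, Col14a1 by 0.41 ± 0.11 and Col6a3 by 0.49 ± 0.18 (limma adjusted p = 0.030). Col6a1, Col6a2 and Col8a2 were not called. Between the same days, 7 of 7 activated fibroblast markers fell (median -1.35), as did 5 of 6 macrophage markers (median -0.89). Other markers rose, with 8 of 8 for cardiomyocytes (median 1.46), 5 of 6 for late scar fibroblasts (median 1.65) and 4 of 7 for resting fibroblasts (median 0.50). The part of these markers in the collagen changes was not tested. The Col6a3 call ended when mouse A10 or A12 of day 7, or mouse A4, A6 or A11 of day 14, was left out, with adjusted p values from 0.0546 to 0.0808.

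Between day 14 and day 21 limma called 0 of the 8 genes in the injured region and 0 of all 11390 genes, and 1 of the 8 had an unadjusted p under 0.05. Between day 21 and day 42, 5 genes fell, where 13.6% of all genes fell. They were Col16a1 at -0.55, Col6a2 at -0.53, Col6a3 at -0.57, Col8a2 at -0.61 and Col6a1 at -0.37 on the log2 scale. Col8a1, Col12a1 and Col14a1 were not called, with adjusted p values of 0.17, 0.19 and 0.061. Between the same days, 3 of 7 activated fibroblast markers fell (median -0.34). Of 7 resting fibroblast markers 1 rose and 0 fell, and of 6 late scar fibroblast markers 0 rose and 0 fell. The part of these markers was not tested. Only 2 of the 5 calls held without mouse A10 of day 21 or without mouse B1 of day 42, when Col6a1, Col6a3 and Col8a2 were lost. The Col6a3 call also ended without mouse A11 of day 21 (adjusted p = 0.0860) or mouse B12 of day 42 (0.0623), and the Col8a2 call without mouse B3 (0.0883) or B9 (0.0550) of day 42, whereas Col14a1 was called without mouse B12 (-0.39, adjusted p = 0.0224).

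By day 21, 7 genes were higher than on day 3 in the injured region, where 32.5% of all genes rose and 34.1% fell, and Col6a3 was not called (0.06, adjusted p = 0.77, with -0.07 without mouse A10 and -0.08 without mouse A11 of day 21). The Col12a1 call among them (0.39, adjusted p = 0.026) ended without mouse A5 or A7 of day 3 or mouse A3 of day 21, with adjusted p values of 0.0711, 0.0851 and 0.103. From day 3 to day 42, 6 genes ended higher in the injured region, where 35.5% of all genes did, and Col6a3 ended lower. The day 42 mean was 30.3 times the day 3 mean for Col8a2, 3.29 times for Col14a1, 2.25 times for Col6a1, 2.02 times for Col6a2, 1.73 times for Col8a1 and 1.71 times for Col16a1. For Col6a3 it was 0.702 times, with a log2 difference of -0.51 ± 0.18 (limma adjusted p = 0.015, with 36.2% of all genes called lower, and 0.0505 without mouse B1 of day 42). For Col12a1 the log2 difference was 0.12 (adjusted p = 0.47). Set against each gene's highest day, the day 42 mean was 29.6% for Col12a1, 41.2% for Col8a1, 45.4% for Col6a3, 48.1% for Col16a1, 54.6% for Col14a1, 65.0% for Col8a2, 69.0% for Col6a2 and 74.4% for Col6a1.

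In the uninjured region limma's F test over the days called 2 of the 8 genes, Col6a1 (adjusted p = 0.012) and Col6a3 (adjusted p = 0.0027), where it called 47.2% of all genes. Whether the 2 regions differ in their time courses was tested above by the F test of region by day. Col8a1 rose between day 3 and day 7 by 1.04 ± 0.32 (limma adjusted p = 0.023), the only one of the 8 called there, where 10.4% of all genes rose. That call ended without mouse A8 of day 3 (adjusted p = 0.0920), mouse A7 of day 7 (0.0668) or mouse A12 of day 7 (0.0542). Between day 21 and day 42, Col6a1 fell by 0.69 ± 0.18 (adjusted p = 0.0094) and Col6a3 by 0.81 ± 0.23 (adjusted p = 0.017), where 10.1% of all genes fell. Both calls ended in a fit of these 2 days alone (adjusted p = 0.058 and 0.0875), and that of Col6a3 also without mouse A10 or A11 of day 21 or mouse B3 of day 42 (0.0594, 0.0590 and 0.0522). Between day 3 and day 42, Col6a3 fell by 1.09 ± 0.23 (adjusted p = 0.0028), where 12.4% of all genes fell. None of the 8 was called between days 7 and 14 (7.49% of all genes rose and 5.56% fell, and 0 of the 8 had an unadjusted p under 0.05) or between days 14 and 21 (0.00878% rose, and again 0 of the 8). None was called between days 3 and 21 either (5.72% rose and 5.78% fell), where 2 of the 8 had an unadjusted p under 0.05. Col8a1 was called in that comparison without mouse A3 of day 21 (1.21, adjusted p = 0.0221) or mouse B12 of day 42 (0.95, adjusted p = 0.0489).

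The day 21 mice split in the uninjured region. Mice A10 and A11, in which the X-inactivation transcript Xist was detected, had 4.69 and 4.37 RPKM of Col12a1, against 0.914 and 0.962 RPKM in mice A3 and A4, in which it was not. For Col6a3 they had 18.4 and 21.6 RPKM in the uninjured region, against 10.04 and 8.56 RPKM in mice A3 and A4. In the injured region the same mice had 57.8 and 59.0 RPKM of Col6a3, against 30.7 and 33.6 RPKM in mice A3 and A4. In uninjured tissue of day 21 all 8 genes were higher in A10 and A11 than in A3 and A4, without overlap, where 30.9% of all genes were. In injured tissue of day 21, 4 of the 8 were higher in A10 and A11 without overlap (23.8% of all genes), 2 overlapped, and 2 were lower without overlap (22.4% of all genes). The 2 lower ones were Col8a1, with 125 and 147 RPKM against 177 and 168 RPKM in mice A3 and A4, and Col12a1, with 22.6 and 25.6 RPKM against 32.9 and 26.5 RPKM.

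Split by Xist, the genes that lay apart on the other days were higher in mice with it, save 1 on day 7. Their number varied between days. In uninjured tissue, mice with Xist lay above all mice without it for 1 of the 8 genes on day 3 (26.2% of all genes), 4 on day 7 (19.3%), 6 on day 14 (22.2%) and 0 on day 42 (16.6%), and the remaining genes overlapped. In injured tissue they lay above for 7 of the 8 on day 3 (25.9% of all genes) and 1 on day 7 (17.2%). On days 14 and 42 they did so for 1 (25%) and 3 (14.6%). On day 7, 1 other gene lay below, a direction counted over all genes for day 21 alone. Only 1 mouse on day 3 had Xist and only 1 mouse on day 14 lacked it.

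Ratios of 2 genes within a library do not depend on how the library is scaled, and they are given as log2 differences, injured minus uninjured, over the 20 mice (mean ± SD). The ratios were tested with a two-sided sign-flip permutation test with p adjusted over the 9 ratios. The smallest p the test can give was 2e-05. Where the ratio of 2 genes in a group is given without log2, it is the geometric mean over its 4 libraries.

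Within collagen VI, the Col6a2 to Col6a1 ratio was higher in the injured region in 20 of 20 mice, by 0.36 ± 0.17 (permutation test, adjusted p = 4.5e-05). The Col6a3 to Col6a1 ratio was higher in 16 of 20 mice, by 0.28 ± 0.38 (adjusted p = 0.00126), a call that ended when the libraries of a mouse were not paired (adjusted p = 0.110). In injured libraries the mean Col6a3 to Col6a1 ratio was 0.802 on day 3, 0.411 on day 7, 0.310 on day 14, 0.288 on day 21 and 0.250 on day 42. In uninjured libraries it was 0.420, 0.349, 0.313, 0.263 and 0.232 on the same days. Col6a3 thus stood lower against Col6a1 at later days in both regions, and the region means were farthest apart on day 3. In the injured region its log2 ratio to Col6a1 fell by 1.68 between day 3 and day 42 (exact permutation test, p = 0.0286, which is the lowest that 4 against 4 libraries allow, and 0.0355 adjusted over 36 such tests).

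Within collagen VIII, the Col8a1 to Col8a2 ratio reversed its direction between the regions. On day 3 it was higher in the injured region in 4 of 4 mice, by 0.90 on the log2 scale. From day 7 on it was lower in the injured region in 16 of 16 mice, with log2 differences of -2.83 on day 7, -3.06 on day 14, -3.30 on day 21 and -3.47 on day 42. Over all 20 mice the mean was -2.35 ± 1.74 (permutation test, adjusted p = 0.00021), a mean over both directions. In injured libraries Col8a1 stood at 63.0 times Col8a2 on day 3, 7.65 times on day 7, 3.84 times on day 14, 2.56 times on day 21 and 3.31 times on day 42. In uninjured libraries it stood at 33.8, 54.4, 31.9, 25.2 and 36.8 times on the same days. The injured log2 ratio fell by 4.25 between day 3 and day 42 (exact permutation test, adjusted p = 0.0355).

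Of the fibril-associated pair, Col12a1 stood closer to Col14a1 in the injured region, where the Col12a1 to Col14a1 ratio was higher in 17 of 20 mice, by 1.54 ± 0.85 (permutation test, adjusted p = 7.2e-05). In injured libraries the ratio was 0.734 on day 3, 0.450 on day 7, 0.258 on day 14, 0.241 on day 21 and 0.246 on day 42. In uninjured libraries it was 0.130, 0.120, 0.082, 0.155 and 0.121 on the same days. The mean log2 difference between regions was 2.49, 1.91, 1.66, 0.64 and 1.02 on these days. The ratio was higher in the injured region in 2 of 4 mice on day 21 and in 3 of 4 on day 42. The injured log2 ratio fell by 1.58 between day 3 and day 42 (exact permutation test, adjusted p = 0.0355). The Col16a1 to Col14a1 ratio was higher in 16 of 20 mice, by 0.32 ± 0.48 (permutation test, adjusted p = 0.0101), a call that ended with 1 RPKM added to both genes (0.09, adjusted p = 0.409). By day, its mean difference was 0.78, 0.50, 0.35, 0.15 and -0.16 on days 3, 7, 14, 21 and 42. It was higher in 2 of 4 mice on each of days 21 and 42.

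**Figure D3:**
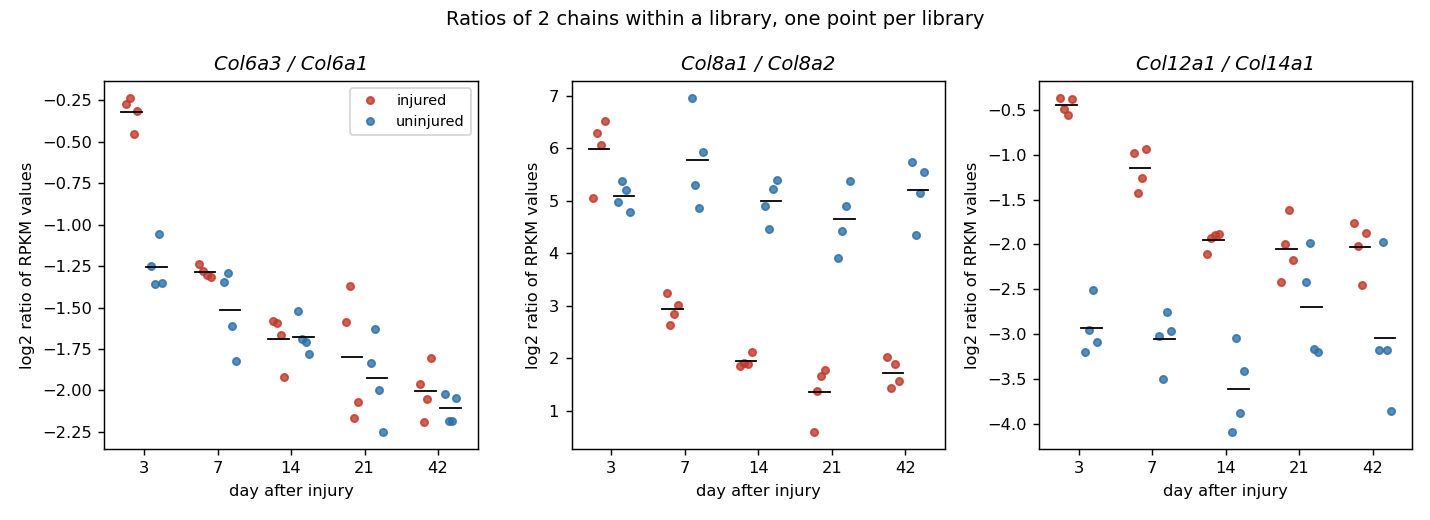
Log2 ratio of the RPKM values of 2 chains within each library against the day after injury (evenly spaced), injured libraries on the left and uninjured libraries on the right of each day, with black lines at the group means. The injured Col8a1 to Col8a2 points lie above most uninjured points on day 3 and below all of them from day 7 on, and the injured points of all 3 ratios are lowest at the later days.

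Col1a1, the main fibrillar chain, gave a common yardstick, which itself averaged 512, 1019, 437, 385 and 104 RPKM in injured and 38.6, 23.0, 14.7, 21.0 and 6.35 RPKM in uninjured libraries on days 3, 7, 14, 21 and 42. The Col6a1 to Col1a1 ratio was lower in the injured region in 20 of 20 mice, at -3.20 ± 0.70 on the log2 scale, and the Col8a1 to Col1a1 ratio in 20 of 20 mice, at -2.08 ± 0.52 (permutation test, adjusted p = 4.5e-05 for each). The Col14a1 to Col1a1 ratio was lower in 19 of 20 mice, at -1.71 ± 0.74 (adjusted p = 4.5e-05). The Col12a1 to Col1a1 ratio differed by -0.16 ± 0.65, with 10 mice on each side (adjusted p = 0.281), but with 1 RPKM added to both genes it was -0.82 (adjusted p = 3.6e-05). In injured libraries, the mean Col6a1 to Col1a1 ratio was 0.103 on day 3, 0.154 on day 7, 0.343 on day 14, 0.398 on day 21 and 1.14 on day 42, and the Col14a1 to Col1a1 ratio was 0.054, 0.164, 0.293, 0.292 and 0.881 on the same days. The log2 ratio to Col1a1 rose between day 3 and day 42 by 3.47 for Col6a1, 4.02 for Col14a1, 3.11 for Col8a1 and 2.44 for Col12a1 (exact permutation test, adjusted p = 0.0355 for each), while the mean of Col1a1 was lower on day 42 and Col12a1 itself was not called (0.12, adjusted p = 0.47). Between day 7 and day 21 the ratio to Col1a1 was not called for Col12a1 (-0.07, adjusted p = 0.882) or Col8a1 (0.39, adjusted p = 0.199).

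The genes whose injured levels were most alike were found by Pearson's r of log2(RPKM + 1) over the 20 injured libraries, which share their mice, days and scaling. Among the 8 genes, Col6a1 and Col6a2 were the closest pair at 0.98, and Col6a3 and Col8a2 were the least alike at 0.10. Col6a3 stood at 0.34 with Col6a1 and 0.33 with Col6a2, although the 3 chains assemble together. Over all genes tested, the closest to Col12a1 was Postn, a matrix protein of activated fibroblasts (0.97), followed by Tmem168 (0.95) and Fndc1 (0.95). The closest to Col8a1 were Thbs2, a matrix thrombospondin (0.97), Wls, which carries Wnt proteins to the cell surface (0.97), and Ddah1, an enzyme that breaks down methylated arginines (0.96). The closest to Col8a2 were Fxyd6, a regulator of the sodium pump (0.99), C1qtnf2 (0.99) and Fmod, a fibril-binding proteoglycan (0.99).

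The closest to Col14a1 were Ctsk, a collagen-degrading cathepsin (0.99), Zfp354c (0.99) and Fbln5, an elastic fibre protein (0.98). The closest to Col6a3 were Arfip2 (0.90) and the fibrillins Fbn2 (0.87) and Fbn1 (0.86). The closest to Col16a1 were Fut11 (0.96), the collagen IX chain Col9a2 (0.96) and the metalloproteinase Mmp23 (0.95). After each other, Col6a1 and Col6a2 were closest to Mtch1, a protein of the outer mitochondrial membrane (0.97 and 0.98), and then to Pdgfrl for Col6a1 (0.97) and Mst1r for Col6a2 (0.95).

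Receptors that bind these collagens were measured in the same libraries, as a list of 10. Set against uninjured tissue, 8 of these rose and 1 fell in the scar on day 3, 8 and 2 on day 7, 7 and 1 on each of days 14 and 21, and 8 and 1 on day 42. Over all genes, beside the shares called higher above, 39.6%, 38.7%, 40.5%, 41% and 38.7% were called lower in the scar on days 3, 7, 14, 21 and 42. The median log2 difference of the list was 0.53 on day 3, 0.78 on day 7, 0.88 on day 14, 0.95 on day 21 and 0.72 on day 42. The anthrax toxin receptors, which bind collagen VI, went in opposite directions. Antxr1 averaged 20.4 ± 2.98 RPKM in injured and 2.12 ± 0.631 RPKM in uninjured libraries on day 7 (SD, n = 4 each), with a log2 difference of 2.79 ± 0.13, after 0.90 ± 0.13 on day 3. Antxr2 averaged 13.8 ± 0.786 RPKM in injured and 39.1 ± 4.02 RPKM in uninjured libraries on day 7 (SD, n = 4 each), and it was lower in the injured region on all 5 days, by -1.26 to -1.82.

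Of the collagen-binding integrins, Itga11, found on fibroblasts, averaged 27.8 ± 1.77 RPKM in injured and 1.21 ± 0.435 RPKM in uninjured libraries on day 7 (SD, n = 4 each), a log2 difference of 3.72 ± 0.14. Itga1 was called on day 7 alone, at -0.30 ± 0.09 (limma adjusted p = 0.0029). Cspg4, the NG2 proteoglycan that binds collagen VI, was higher on all 5 days by 0.49 to 0.86.

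Matrix proteins that bind these collagens or their fibrils were listed as 12 genes, of which 11 were tested. On day 3 the scar had 4 at a higher and 2 at a lower level, on days 7, 14 and 21 it had 10 at a higher and 1 at a lower level, and on day 42 it had 10 at a higher and 0 at a lower level, against the same shares over all genes. The median log2 difference of the list was 0.28 on day 3, 2.24 on day 7, 2.15 on day 14, 1.77 on day 21 and 2.03 on day 42. Tnc, tenascin-C, was high early, with 170 ± 42.4 RPKM in injured and 12.6 ± 8.49 RPKM in uninjured libraries on day 3 (SD, n = 4 each). Comp, a matrix protein of cartilage and tendon, averaged 1.97 ± 0.366 RPKM in injured and 0.930 ± 0.230 RPKM in uninjured libraries on day 3, a difference that was not called (limma adjusted p = 0.13). On day 21 Comp averaged 584 ± 93.6 RPKM in injured and 14.7 ± 12.5 RPKM in uninjured libraries (SD, n = 4 each).

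Dcn, decorin, a proteoglycan that binds collagen XIV, changed direction. It averaged 152 ± 15.4 RPKM in injured and 345 ± 45.8 RPKM in uninjured libraries on day 3, a log2 difference of -1.17 ± 0.14, and was higher in the injured region by 0.60 to 1.67 from day 7 on. Tnxb, tenascin-X, a binding partner of collagen XII, averaged 2.03 ± 0.276 RPKM in injured and 13.7 ± 1.73 RPKM in uninjured libraries on day 3 (SD, n = 4 each). Its log2 difference was -2.28 ± 0.21 on day 3, -1.14 on day 7, -0.47 on day 14, -0.76 on day 21 and -0.32 on day 42, of which the day 42 value was not called.

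**Figure D4:**
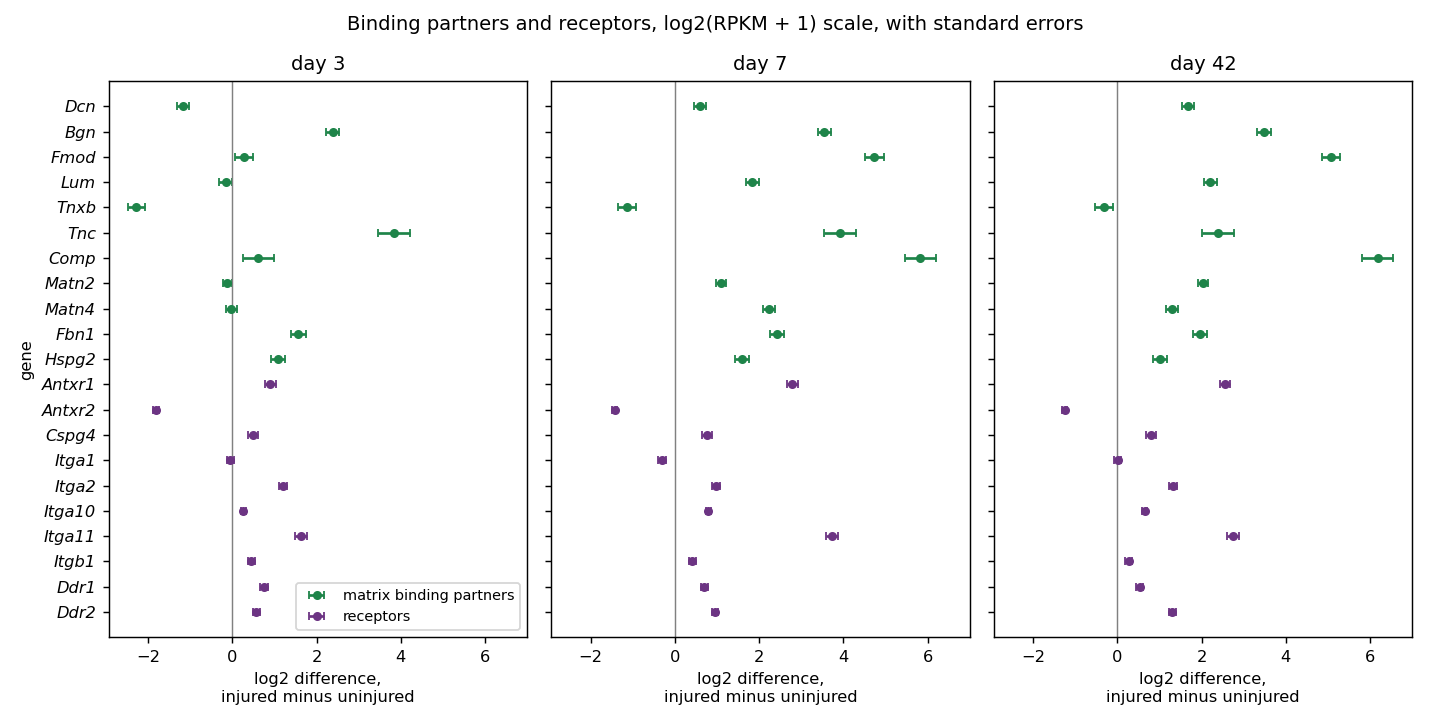
Log2 difference of RPKM + 1, injured minus uninjured, of 11 matrix binding partners (green) and 10 receptors (purple) on days 3, 7 and 42, with bars of 1 standard error of the limma fit and 4 mice per point. Antxr2 lies left of 0 on all 3 days, Tnxb moves towards 0 after day 3, and Comp and Fmod lie near 0 on day 3 and beyond 4 on days 7 and 42.

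The fibrillar collagens that these molecules decorate were listed as 6 genes of collagens I, III and V, and all 6 were higher in the injured region on every day, with medians of 2.75, 3.71, 3.51, 3.02 and 3.13 on days 3, 7, 14, 21 and 42. Of 18 other chains of the network-forming, microfilament and fibril-associated families, 6 were in the table and 4 were tested. Col6a6, an alternative collagen VI chain, averaged 0.164 ± 0.030 RPKM in injured and 2.12 ± 0.076 RPKM in uninjured libraries on day 3 (SD, n = 4 each), a log2 difference of -1.42 ± 0.12. It was lower in the injured region on days 3, 7, 14 and 21, opposite to Col6a3, and on day 42 its difference was 0.02 (limma adjusted p = 0.88). Col7a1, the chain of anchoring fibrils, was higher on all 5 days, and averaged 2.58 ± 0.125 RPKM in injured and 0.037 ± 0.020 RPKM in uninjured libraries on day 7 (SD, n = 4 each). Col9a2 was not called on day 3 and averaged 5.25 ± 1.97 RPKM in injured and 0.622 ± 0.220 RPKM in uninjured libraries on day 7 (SD, n = 4 each). Col28a1 was higher on all 5 days, by 0.31 to 0.50.

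The summed markers of several cell types differed between regions, and their part in the collagen values was not tested. The summed RPKM of 8 cardiomyocyte markers was 1239 to 5578 in injured and 16202 to 26703 in uninjured libraries. The sum of 7 activated fibroblast markers was 432 to 2493 in injured and 72.4 to 243 in uninjured libraries, and that of 7 resting fibroblast markers 124 to 1924 in injured and 320 to 837 in uninjured libraries. The resting fibroblast sum changed direction, from 124 to 138 in injured and 412 to 532 in uninjured libraries on day 3. By day 42 it was 1364 to 1924 in injured and 515 to 654 in uninjured libraries. The sum of 6 late scar fibroblast markers, such as Comp and Fmod, was 13.7 to 1776 in injured and 4.26 to 52.9 in uninjured libraries. In injured libraries it was 13.7 to 20.7 on day 3 and 352 to 492 on day 7, the interval over which Col8a2 rose. Macrophage markers (6) summed to 511 to 2113 in injured and 216 to 357 in uninjured libraries, and smooth muscle and pericyte markers (6) to 76.8 to 198 in injured and 304 to 457 in uninjured libraries. The single smooth muscle and pericyte markers were split, beside the shares over all genes given above. On day 3, 2 were called higher and 4 lower in the injured region, and on each later day 3 were higher and 3 lower. Endothelial markers (6) summed to 71.8 to 208 in injured and 136 to 195 in uninjured libraries, and epicardial and mesothelial markers (5) to 1.84 to 58.0 in injured and 1.23 to 16.0 in uninjured libraries. On day 3 the endothelial sum was higher in injured libraries, at 176 to 208 against 152 to 167. From day 7 on it was lower there, with 85.3 to 106 against 179 to 195 on day 7. None of these markers was at 0 in all libraries, 3 of 4 cartilage markers were in the table at 4.10 to 34.4 in injured and 0.316 to 1.47 in uninjured libraries, and 0 of 4 skeletal muscle markers were in the table.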

How the data were processed

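The deposited table holds RPKM values for 11450 genes in 40 mouse heart libraries. Per the labels' protocols, RNeasy Mini columns (Qiagen) gave the total RNA and an Illumina RNA kit the libraries, and per the submitters' processing notes the tools were STAR and edgeR with the mm10 build. Whether counting used strand is not given in the sources used here. The deposited RPKM values were whole multiples of a gene's step for 100% of values (tolerance 0.01 of a read), which gave the reads per library, and these reads over the library size implied by RPKM had a median of 0.971 in injured and 1.64 in uninjured libraries (1 for the day 3 injured library of mouse A4). Scaling to recovered reads therefore shifts all region differences upward.

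Genes with at least 1 RPKM in at least 4 libraries were tested on log2(RPKM + 1), so fold changes of low genes are understated, with limma 3.58.1 (R 4.3.3), mean-variance trend and robust moderation. Region contrasts had the mouse as a replicate block, since both regions came from the same heart. The residuals of the 2 libraries of a mouse correlated by 0.148 to 0.540, above 0.1 in all 20 mice. Day contrasts used the 20 libraries of a region. Ratios within libraries were tested over mice with 100000 sign flips, or between days with exact permutations. The limma scripts were checked on simulated data. Of the libraries, 0 pairs held the same values, and Spearman's rho between libraries reached 0.995.

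The genes, lists and tests were chosen with earlier results of these data known. All 8 members are described, and for each the 3 genes with the highest Pearson r over the injured libraries are named. Promoter sequences came from RefSeq. Alternatives were a pseudocount of 0.1, no filter, quantile normalization, 2 other scalings, no block or a random mouse effect, fits of the compared days alone, Xist detection as a covariate, and leaving out each mouse.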

Additional observations from a re-analysis of the deposited data

Results flagged for a closer look

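A single library stood apart from the other 3 of its group in 5 of the 80 groups (8 genes, 5 days, 2 regions), where chance gives about 1 in 20, or 4. In uninjured tissue of day 42, mouse B12 had the highest Col6a1, 44.14 RPKM, and the highest Col6a2, 16.4 RPKM. In injured tissue, mouse A5 had 52.0 RPKM of Col6a3 on day 14, mouse A4 had 2.455 RPKM of Col8a2 on day 3, and mouse A7 had 178.2 RPKM of Col14a1 on day 7. Without mouse B12, 3 of the 8 genes fell between day 3 and day 42 in the uninjured region, Col6a1 by 0.48 (limma adjusted p = 0.0397) and Col6a2 by 0.64 (adjusted p = 0.0185) in addition to Col6a3. With all mice 12.4% of all genes fell there, and the share without mouse B12 is not given here. Mouse B12 was singled out by its values of these same genes.

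The difference between regions changed with the day for 7 of the 8 genes by limma's F test of region by day, which called 74.3% of all genes. The adjusted p was 9.026e-12 for Col8a2, 4.273e-06 for Col6a1, 1.3e-05 for Col6a2, 1.321e-05 for Col14a1, 2.022e-05 for Col16a1, 0.005245 for Col12a1 and 0.0448 for Col6a3.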

How the results depend on the processing

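No called difference changed direction, and all 8 genes were called higher in the injured region on days 7 to 42 in all alternatives run. On day 3 the count was 8, and 7 without the replicate block, where Col8a2 had an adjusted p of 0.0613, after quantile normalization, and without mouse A4 or A8. In the injured region, leaving out a mouse gave 2 to 5 calls between days 21 and 42 (5 with all mice). In the uninjured region it gave 0 to 1 between days 3 and 7 (1 with all), 1 to 3 between days 21 and 42 (2), 0 to 1 between days 3 and 21 (0) and 1 to 3 between days 3 and 42 (1). Between days 3 and 7 in the uninjured region, 2 genes were called in a fit of these days alone and 2 after scaling to recovered reads without mitochondrially encoded genes, a choice made after seeing the data, as was the Xist covariate. Between days 21 and 42 there, 1 was called after quantile normalization, 1 after scaling to recovered reads and 0 in a fit of these days alone. With 1 RPKM added to both genes, the Col16a1 to Col14a1 ratio differed by 0.0877 (adjusted p = 0.409) and the Col12a1 to Col1a1 ratio by -0.82 (3.6e-05). Without pairing the libraries of a mouse as a replicate block, the Col6a3 to Col6a1 ratio differed by 0.28 (0.110). The causes of these changes were not tested. The replicate block changed no other call of the 8 genes. The listed edgeR test on recovered reads was not run, since the deposited unit is RPKM. Differences that were not called and lay near 0 changed sign when a mouse was left out, with these log2 ranges. In the injured region, days 21 against 14 gave -0.15 to 0.0205 for Col16a1, -0.0203 to 0.11 for Col6a1, -0.0041 to 0.15 for Col6a2 and -0.20 to 0.10 for Col6a3, and days 21 against 3 gave -0.085 to 0.22 for Col6a3. With the Xist covariate the Col6a3 values were 0.0227 and -0.0196 in these 2 comparisons. In the uninjured region, days 7 against 3 gave -0.0192 to 0.22 for Col6a3, days 14 against 7 gave -0.051 to 0.27 for Col8a2, and days 21 against 3 gave -0.055 to 0.29 for Col6a2. Days 21 against 14 there gave -0.27 to 0.23 for Col14a1, -0.035 to 0.21 for Col6a1, -0.13 to 0.21 for Col6a2 and -0.36 to 0.059 for Col6a3. Days 42 against 3 there gave -0.37 to 0.057 for Col12a1, -0.32 to 0.091 for Col14a1, -0.33 to 0.049 for Col16a1 and -0.049 to 0.31 for Col8a2. Precision is limited by 4 mice a group and, for Col8a2, by as few as 20 reads.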
